A study of Danio rerio with 6 samples.

Results

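Germ cells of zebrafish, whether they lie in an ovary or in a testis, carry a set of RNA-binding proteins that keep the germ line apart from the body. The 6 Ensembl identifiers that had been listed as such genes were examined in whole juveniles: ENSDARG00000014373 (ddx4, also called vasa), ENSDARG00000041699 (piwil1), ENSDARG00000062601 (piwil2), ENSDARG00000036214 (dazl), ENSDARG00000068255 (nanos3) and ENSDARG00000045139, 6 of the 32520 genes of the count table. The last of them was listed as dnd1. The gene name table names it CA7, a carbonic anhydrase, and so do the tables published with the study, while both give dnd1 as ENSDARG00000022813. It was therefore described as ca7, and dnd1 was added under its own identifier, so that 5 of the 6 chosen genes are germ cell genes.

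RNA-seq was done on AB strain zebrafish kept from fertilisation for 32 days in water with the aromatase inhibitor exemestane (EM) at 10 µg/L or with the solvent alone, dimethyl sulfoxide (DMSO) at 10 µL/L. The EM was dissolved in DMSO, so the solvent was common to the 2 groups. Exemestane blocks the enzyme that makes estrogens from androgens. Each group, the EM-juveniles and the control juveniles, had 3 libraries, and each library held the pooled whole bodies of 25 fish from 1 tank, of unknown sex. In such pools fewer germ cells and less RNA per germ cell cannot be told apart, and the reads are counted per gene, so the sex-specific isoforms of ddx4 are not separated.

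Libraries held between 3169530 and 7804654 counted reads. Markers of muscle (ckma), liver (fabp10a), glia (gfap), pancreas and skin, 8 genes in all, had reads in every library, as a whole body should. Control replicate 2 stood apart from the other libraries: its mean correlation with them was 0.835, against 0.914 to 0.928 for the others, and its 100 most abundant genes took 39.0% of its counts, against 21.3% to 25.1%. It was the lowest control library in 47.8% of all tested genes, and for 6 of the 8 tissue markers. Against the mean of control replicates 1 and 3, it held 0.155 times the ela2l and 0.236 times the ela3l of the pancreas. For krt8 of skin this ratio was 0.333, while for fabp10a and ckma it was 2.04 and 2.6. Whether this difference in tissue markers bears on the germ cell genes was not tested. The calls and correlations that rest on this library are also given without it.

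The germ line of zebrafish is set aside early, by germ plasm, a store of maternal RNA and protein. ddx4 encodes an RNA helicase of the germ plasm and of the granules of germ cells. piwil1 and piwil2 encode the Piwi proteins Ziwi and Zili, which bind piRNAs (small RNAs that silence transposons). dazl and nanos3 encode RNA-binding proteins that act on the translation of germ cell messengers and on the upkeep of germ cells, and dnd1 encodes an RNA-binding protein that primordial germ cells need. All zebrafish first form an ovary-like gonad, from which oocytes are later lost in the fish that become males. The comparison of EM-juveniles with control juveniles asks how blocking estrogen synthesis alters the transcriptome over that period.

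All 5 germ cell genes had fewer normalised reads in every EM library than in control replicates 1 and 3. This arrangement was found in 10.3% of all tested genes. dazl alone of the 5 was also lower in every EM library than in control replicate 2. It was the only one called by DESeq2 (two-sided Wald test, adjusted p under 0.05 over all genes), which called 1.08% of the 23966 tested genes, 0.663% lower and 0.421% higher. dazl is in the study's own list for these libraries, so its call is no independent evidence. ddx4, piwil1, piwil2 and nanos3 were not called. In ddx4, piwil1 and piwil2 control replicate 2 lay among the EM libraries or below them, and for nanos3 it had no reads, too shallow to place it. Without that library 4 of the 5 were called lower, where 0.816% of all tested genes were (1.15% in either direction). All 6 chosen genes had a negative log2 fold change, as had 49.9% of all tested genes.

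The edgeR quasi-likelihood test called 0 of the 19264 genes it tested (0.00%), with 759 at an unadjusted p under 0.05, where DESeq2 had 1673. Of the 5 chosen genes that edgeR tested, which include ca7 but not nanos3, 4 were at an unadjusted p under 0.05. These were ddx4, piwil2, dazl and ca7, the last of which is no germ cell gene. Without control replicate 2 edgeR called 1 of the 5, dazl, and 0.592% of all the genes it then tested as lower.

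dazl encodes an RNA-binding protein of germ cells of both sexes. Its normalised read count (reads divided by the size factor of the library) was 5.85, 4.44 and 2.24 in EM replicates 1, 2 and 3, against 40.2, 29.7 and 28.6 in control replicates 1, 2 and 3. The groups did not overlap, and on this scale the 3 control libraries lay close together. This separation was found, with EM below, in 5.60% of all tested genes, and with EM above in 5.70%. The mean was 4.18 ± 1.82 in EM-juveniles and 32.8 ± 6.42 in control juveniles (SD, n = 3 each). This was a log2 fold change of -2.92 ± 0.66 (SE), for which DESeq2 gave an adjusted p of 0.00178 and edgeR one of 0.154. limma voom with sample quality weights gave an adjusted p of 0.00832.

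These dazl values rest on few reads, 10, 4 and 2 in EM replicates 1, 2 and 3 and 50, 12 and 44 in control replicates 1, 2 and 3. On the log2 scale the change stayed between -3.31 and -2.65 with any 1 library removed. The call was lost without control replicate 1 (DESeq2 adjusted p = 0.179), without EM replicate 2 (0.0569) and without EM replicate 3 (0.0681), and was kept without each of the other 3 libraries. Without EM replicate 1, the deepest, the adjusted p was 0.0106, where 0.584% of all tested genes were called lower. Without control replicate 2 the adjusted p was 0.00288 in DESeq2 and 0.0498 in edgeR.

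**Figure D1:**
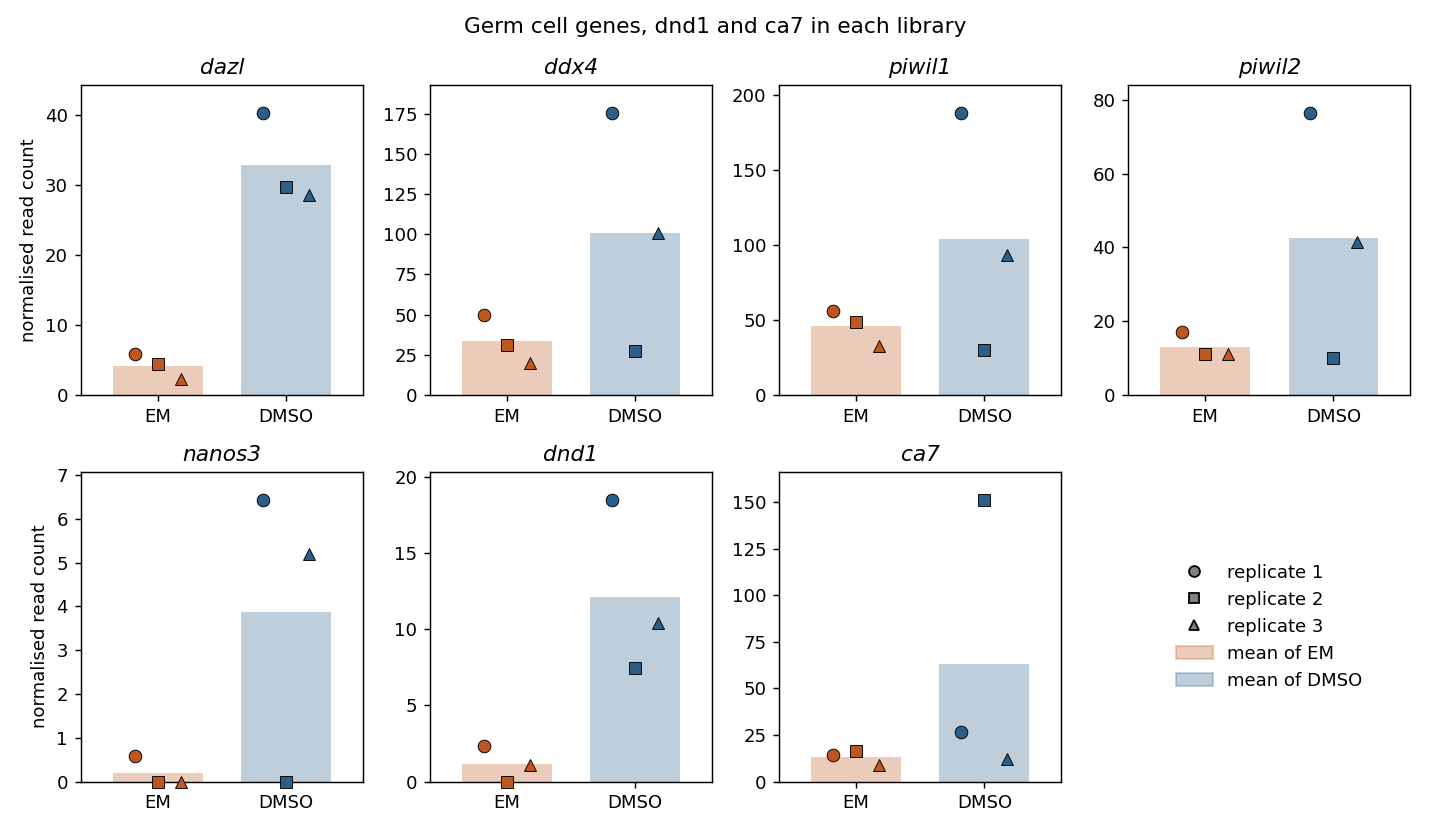
Normalised read count (linear axis from 0) of the germ cell genes dazl, ddx4, piwil1, piwil2 and nanos3, of dnd1 and of ca7 in EM and DMSO libraries, with a symbol for each replicate and a bar at the group mean. For dazl the EM libraries lie between 2.24 and 5.85 and the DMSO libraries between 28.6 and 40.2, while for ddx4, piwil1 and piwil2 DMSO replicate 2 lies among or below the EM libraries.

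ddx4, the vasa gene, had 49.8, 31.1 and 20.2 normalised reads in EM replicates 1, 2 and 3, against 175, 27.3 and 101 in control replicates 1, 2 and 3. Control replicate 2, with 11 reads, fell between EM replicates 2 and 3, so the groups overlapped. With all libraries this gave a log2 fold change of -1.59 ± 0.71 (SE), at an adjusted p of 0.562 in DESeq2 and of 0.916 in edgeR. Without control replicate 2 it was -2.01 ± 0.48 (SE), with an adjusted p of 0.00436 in DESeq2 and of 0.154 in edgeR. The means of the remaining libraries then differed 4.10-fold.

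The Piwi genes had the same arrangement. piwil1 had 56.2, 48.8 and 32.5 normalised reads in EM replicates 1, 2 and 3, against 188, 29.7 and 93.5 in control replicates 1, 2 and 3. piwil2 had 17.0, 11.1 and 11.2 in EM replicates 1, 2 and 3, against 76.4, 9.91 and 41.6 in control replicates 1, 2 and 3. In each of the pair control replicate 2 was the lowest of all 6 libraries, as it was in 40.7% of all tested genes, and control replicates 1 and 3 were the highest. Control replicate 2 had only 12 reads of piwil1 and 4 of piwil2. It lay below EM replicate 3 by about the worth of 1 of its reads for piwil1. For piwil2 it lay below EM replicates 2 and 3 by less than that.

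With all libraries the log2 fold change was -1.19 ± 0.67 (SE) for piwil1 and -1.72 ± 0.75 (SE) for piwil2, with DESeq2 adjusted p of 0.789 and 0.535 and an edgeR adjusted p of 0.916 for each. Without control replicate 2 these changes were -1.60 ± 0.45 (SE) and -2.13 ± 0.54 (SE), with DESeq2 adjusted p of 0.0328 and 0.00902. The edgeR adjusted p without that library was 0.284 for piwil1 and 0.0985 for piwil2. The difference between the fold changes of piwil2 and piwil1 was not tested.

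nanos3 was near the limit of detection. It had 1, 0 and 0 reads in EM replicates 1, 2 and 3, against 8, 0 and 8 reads in control replicates 1, 2 and 3. With a floor of 3 counts per library, the 0 in control replicate 2 allows up to 7.43 normalised reads, above the 6.44 and 5.19 measured in control replicates 1 and 3, so a loss in that library was not detectable at its depth. The mean of the control juveniles was at least 1.38-fold higher than that of the EM-juveniles, and at least 2.07-fold higher without control replicate 2. The DESeq2 adjusted p was 0.776, and 0.591 without that library. The expression filter of edgeR removed the gene.

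dnd1 was added to the comparison once its identifier was known. It had 4, 0 and 1 reads in EM replicates 1, 2 and 3, against 23, 3 and 16 reads in control replicates 1, 2 and 3, or 2.34, 0 and 1.12 against 18.5, 7.43 and 10.4 normalised reads. The groups did not overlap, with EM below, as in 5.60% of all tested genes, although the reads of control replicate 2 were at the floor. Its log2 fold change was -3.26 ± 1.12 (SE), and the gene was not called with all libraries (DESeq2 adjusted p = 0.208) or without control replicate 2 (DESeq2 adjusted p = 0.173).

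ca7, which encodes an enzyme that interconverts carbon dioxide and bicarbonate, behaved unlike the germ cell genes. It had 14.1, 16.6 and 8.95 normalised reads in EM replicates 1, 2 and 3, against 26.6, 151 and 12.3 in control replicates 1, 2 and 3. The high value was that of control replicate 2 alone, and the other 5 libraries overlapped. The log2 fold change was -2.23 ± 0.91 (SE) with all libraries and -0.54 ± 0.67 (SE) without control replicate 2, with DESeq2 adjusted p of 0.457 and 1.00.

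**Figure D2:**
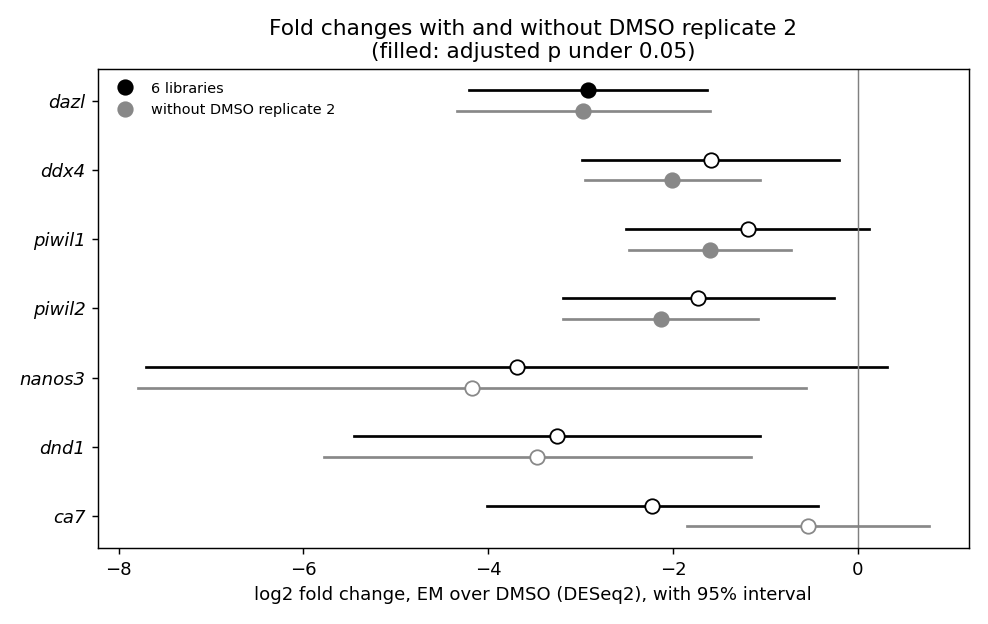
Log2 fold change of EM over DMSO from DESeq2 with its 95% interval, for each gene, from 6 libraries (black) and without DMSO replicate 2 (grey), with filled symbols where the adjusted p was under 0.05. dazl is called in each fit, ddx4, piwil1 and piwil2 only without DMSO replicate 2, and ca7 moves from -2.23 to -0.54.

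The highest library of each group was the same for ddx4, piwil1, piwil2 and dazl. EM replicate 1 was the highest EM library for these genes, which held for 37.0% of all tested genes. For nanos3 and dnd1 it also had the most normalised reads of the EM libraries, but this cannot be ranked. Their values of 0.585 and 2.34 lay under the floors of 3.33 and 3.36 in EM replicates 2 and 3. EM replicates 2 and 3 followed in that order for ddx4, piwil1 and dazl, while for piwil2 they differed by less than the worth of 1 read. Control replicate 1 was the highest control library for ddx4, piwil1, piwil2, dazl and dnd1, against 24.9% of all tested genes. For nanos3 its 6.44 lay under the floor of 7.43 in control replicate 2. Control replicate 2 was the lowest control library for ddx4, piwil1 and piwil2, and for dnd1 with its reads at the floor, while its 0 for nanos3 cannot be ranked. For dazl control replicates 2 and 3 differed by less than the worth of 1 read in control replicate 2. With TMM-scaled CPM, every pair of libraries kept its order for each of the 6 chosen genes.

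Set against the mean of control replicates 1 and 3, control replicate 2 held 19.7% of ddx4, 21.1% of piwil1 and 16.8% of piwil2, about the level of the EM libraries. The EM libraries held 14.6% to 36.1% of ddx4, 23.0% to 39.9% of piwil1 and 18.8% to 28.8% of piwil2. dazl departed from this pattern. Control replicate 2 held 86.4% of it, while the EM libraries held 6.51% to 17.0%. For dnd1 control replicate 2 held 51.4% and the EM libraries 0% to 16.2%. These shares depend on the size factor of control replicate 2, 0.404 for 3169530 reads, against 0.894 for 4057579 in EM replicate 3. In plain CPM control replicate 2 had 3.79 of dazl, against 8.3 and 6.01 in control replicates 1 and 3. Its ddx4, piwil1 and piwil2 were then 3.47, 3.79 and 1.26, below every EM library, and its dazl stayed above every EM library.

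**Figure D3:**
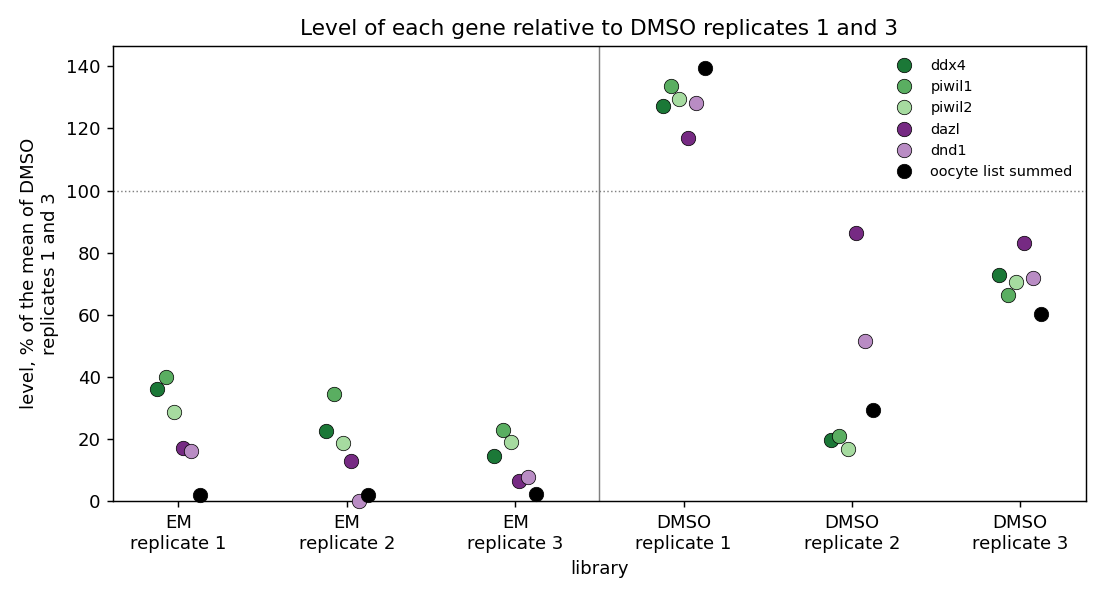
Level of ddx4, piwil1, piwil2, dazl, dnd1 and the summed oocyte list in each library, as a percentage of the mean of DMSO replicates 1 and 3 (dotted line at 100%). In the EM libraries all points lie at or under 39.9%; in DMSO replicate 2 ddx4, piwil1 and piwil2 lie at 16.8% to 21.1% and dazl at 86.4%.

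The ratio of dazl to ddx4 reads within a library does not depend on the scaling of that library. It was chosen for display after the values above were seen. dazl made up 10.5% of the reads of the pair in EM replicate 1 (95% exact binomial interval 5.16% to 18.5%), 12.5% in EM replicate 2 (3.51% to 29.0%) and 10.0% in EM replicate 3 (1.24% to 31.7%). It made up 18.7% in control replicate 1 (14.2% to 23.9%), 52.2% in control replicate 2 (30.6% to 73.2%) and 22.1% in control replicate 3 (16.6% to 28.5%). The EM libraries were all below the control libraries, but their intervals overlapped those of control replicates 1 and 3, and that of EM replicate 3 also overlapped that of control replicate 2. The interval of control replicate 2 lay above those of the other controls. These intervals cover counting error only.

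The Piwi genes kept closer to ddx4. There were 1.13, 1.57 and 1.61 piwil1 reads for each ddx4 read in EM replicates 1, 2 and 3, against 1.07, 1.09 and 0.929 in control replicates 1, 2 and 3. For piwil2 the ratio was 0.341, 0.357 and 0.556 in EM replicates 1, 2 and 3, against 0.436, 0.364 and 0.413 in control replicates 1, 2 and 3. The piwil1 ratio was higher in each EM library than in each control library, by little in EM replicate 1. In control replicate 2 it rested on 12 piwil1 and 11 ddx4 reads, so its difference from EM replicate 1 was within 1 read. The piwil2 ratio overlapped between the groups. How often ratios of other gene pairs separate the groups, as for piwil1 here and dazl above, was not tested.

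**Figure D4:**
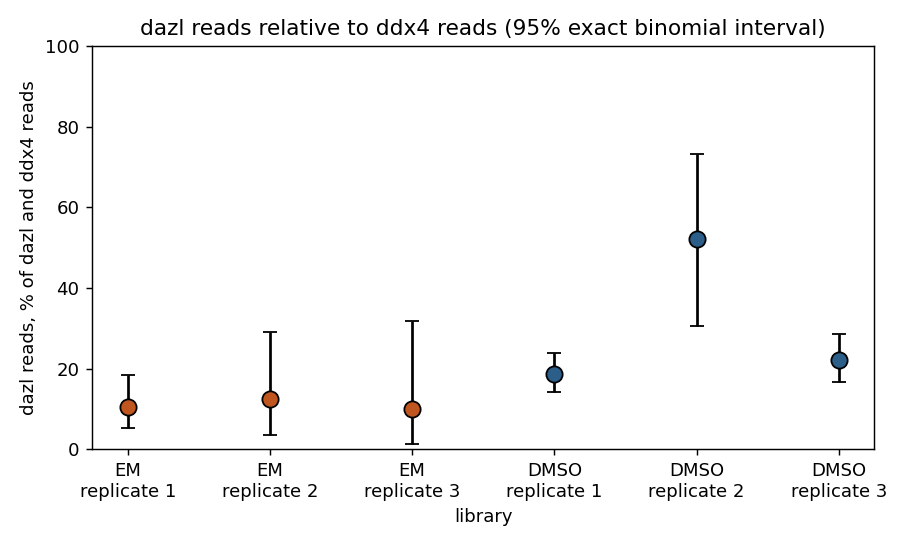
Reads of dazl as a percentage of the reads of dazl and ddx4 together in each library, with 95% exact binomial intervals that cover counting error only. The EM libraries lie at 10.0% to 12.5%, DMSO replicates 1 and 3 at 18.7% and 22.1%, and DMSO replicate 2 at 52.2%.

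Genes that act with these factors were read from the same test. Of 21 genes of the germ plasm and the piRNA pathway, 18 had an identifier and 17 were tested. DESeq2 called 3 lower and 0 higher: buc and buc2l, the Bucky ball genes (buc organises the Balbiani body, where germ plasm gathers in the oocyte), and tdrd1, a Tudor protein that binds Piwi proteins. Over all tested genes DESeq2 called 0.663% lower and 0.421% higher. All 3 called genes are in the study's own list for these libraries and are no independent evidence. The count of 3 became 1 without control replicate 1, and 2 without EM replicate 2, EM replicate 3 or control replicate 3. buc had 5.27, 0 and 4.48 normalised reads in EM replicates 1, 2 and 3, against 282, 59.5 and 111 in control replicates 1, 2 and 3. tdrd1 had 19.3, 19.97 and 10.1 in EM replicates 1, 2 and 3, against 126, 29.7 and 75.3 in control replicates 1, 2 and 3. In tdrd1, control replicate 2 again lay nearer to the EM libraries than to the other controls.

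The log2 fold change was -5.48 ± 0.87 (SE) for buc, -4.85 ± 1.01 (SE) for buc2l and -2.24 ± 0.64 (SE) for tdrd1. The DESeq2 adjusted p was 2.91e-07, 4.65e-04 and 0.0479, and that of edgeR 0.140, 0.304 and 0.916. buc2l was at or under the floor in every EM library, so its fold change is only bounded, with a control mean at least 17.3-fold higher. Over the 18 genes the median log2 fold change was -1.86, against 0.000896 over all tested genes. Without control replicate 2 it was -2.16, and 6 genes were called lower, where 0.816% of all tested genes were. The added ones were tdrd6, gtsf1 and rnf17, named here after their values were seen. edgeR without that library called 4, gtsf1 among them (adjusted p = 0.0352) but not tdrd6 (0.128) or rnf17 (0.0526). With all libraries these 3 lay at -1.38, -2.23 and -1.96, with DESeq2 adjusted p of 0.608, 0.149 and 0.203. nanos1 and tdrkh, which had reads well above the floor in all libraries, had -0.07 and -0.43, and nanos1 turned positive when control replicate 2 was left out. henmt1 also turned positive then, from -0.47 to 0.48, and 16 of the 18 genes stayed negative. Over genes that reached 10 counts in each library the median was itself -0.13 with all libraries and 0.005 without control replicate 2.

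Genes of meiosis were thinly covered. Of 18 such genes, 15 had an identifier and 12 were tested. DESeq2 called 0 of them in either direction, against 1.08% of all tested genes, and 0 were at an unadjusted p under 0.05. edgeR tested 4 of them and called 0, as it did over all genes. Their median log2 fold change was -0.22 with all libraries and 0.26 without control replicate 2. sycp1, a part of the synaptonemal complex that joins paired chromosomes, had 10.5, 87.7 and 58.2 normalised reads in EM replicates 1, 2 and 3, against 21.7, 47.1 and 20.1 in control replicates 1, 2 and 3. It is named after its values were seen. sycp3, dmc1 and spo11 had at most 7.43 normalised reads in any library, so a change in them was not detectable at this depth.

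Markers of oocytes were read in the same way. Of 20 such genes, all were tested and 17 were called lower in EM-juveniles and 0 higher, against 0.663% and 0.421% of all tested genes. Their median log2 fold change was -6.02, or -4.29 with genes at the floor in every EM library set to their bound. The median was -6.49 without control replicate 2, and 17 genes were called lower there too, against 0.816% of all tested genes. All 17 are in the study's own list for these libraries. Their calls, the list median and the sums below are therefore no independent evidence. With any 1 library removed the count was 13 (without control replicate 1) to 17. Summed over the list there were 43.9, 44.4 and 50.4 normalised reads in EM replicates 1, 2 and 3, against 2919, 612 and 1263 in control replicates 1, 2 and 3. Control replicate 2 thus held 29.3% of the mean of the other controls, well above the EM libraries, which held at most 2.41%. On this scale the ddx4, piwil1 and piwil2 of control replicate 2 were at the level of the EM libraries. zar1, a maternal-effect gene of the oocyte, had 4.10, 1.11 and 3.36 in EM replicates 1, 2 and 3, against 422, 44.6 and 130 in control replicates 1, 2 and 3. The egg coat gene zp2l1 and the maternal gene btg4 had no reads in any EM library, nor had zp3c, zp2.1 and zglp1. lhx8a had 17.0, 18.9 and 28.0 normalised reads in EM replicates 1, 2 and 3, against 50.7, 14.9 and 26.6 in control replicates 1, 2 and 3. Its groups overlapped, and it was not called (DESeq2 adjusted p = 0.998). These genes are named after their values were seen. The part of the oocyte markers in the germ cell results was not tested.

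gdf9, bmp15 and figla, which encode signals and a transcription factor of the oocyte, were thinly covered. figla was called lower (log2 fold change -5.34 ± 1.48 (SE), DESeq2 adjusted p = 0.0315), with 0.585, 1.11 and 0 normalised reads in EM replicates 1, 2 and 3, against 48.3, 2.48 and 16.9 in control replicates 1, 2 and 3. figla was under the floor in every EM library, so its fold change is only bounded, with a control mean at least 8.01-fold higher. In control replicate 2 it rested on 1 read. Its DESeq2 adjusted p was 0.00116 without that library. gdf9 and bmp15 were not called, with DESeq2 adjusted p of 0.891 and 0.845.

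**Figure D5:**
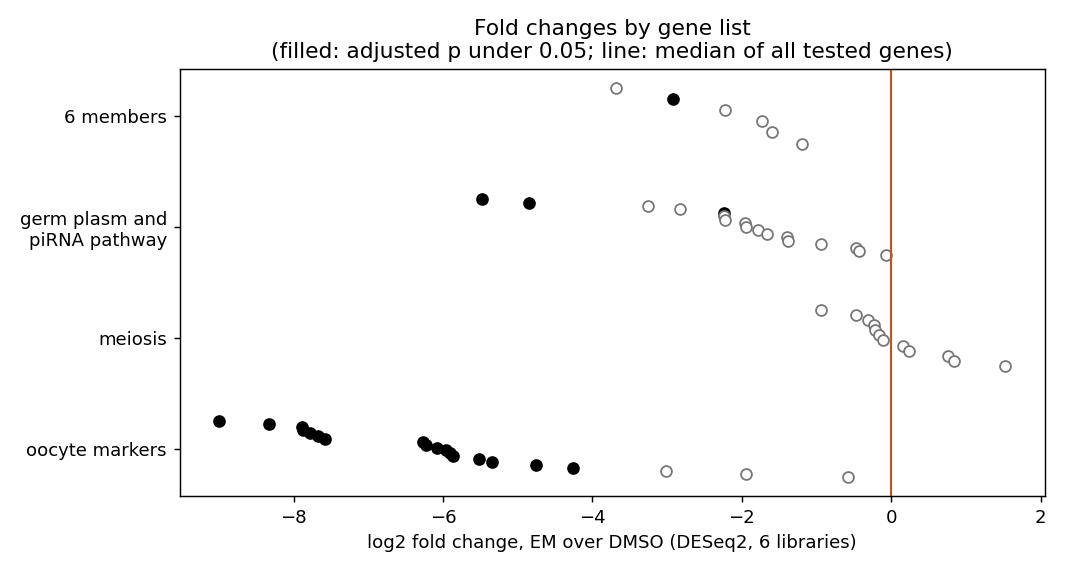
Log2 fold change of EM over DMSO (DESeq2, 6 libraries) of the tested genes of each list, with filled symbols where the adjusted p was under 0.05 and a vertical line at the median of all tested genes. All 6 chosen genes and all 17 tested genes of the germ plasm and piRNA pathway lie left of the line (nanos1, at -0.07, and henmt1, at -0.47, lie right of 0 without DMSO replicate 2), the meiosis genes lie on each side of it, and 17 of the 20 oocyte markers are filled.

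The genes whose profile was most like that of each member were found over the 6 libraries, with Pearson's r on log2-transformed normalised reads. These are descriptions over 6 points that share 2 groups and, for each member, the best 3 of 18624 named genes (18625 for nanos3). piwil2 was nearest to tdrd6, a Tudor protein of the germ plasm (r = 0.993), then to caprin2 (0.980), an RNA-binding protein, and to ddx4 (0.977). ddx4 was nearest to GLDC (0.979), an enzyme of glycine breakdown, and then to piwil2 and piwil1 (0.977 and 0.974). On the log2 scale the range of GLDC, 106 to 252 normalised reads, was narrower than that of ddx4, 20.2 to 175. nanos3 was nearest to caprin2 (0.986), piwil2 (0.983) and zgc:171750 (0.982). In control replicate 2 caprin2 had 2.48 normalised reads, under the floor of 7.43, and zgc:171750 had 0. In every EM library zgc:171750 also had 0. The mean of nanos3 itself was 2.04 normalised reads, under the minimum of 10 set for the other genes. Its r takes the 0 in control replicate 2 as measured, although that 0 cannot be placed.

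piwil1 was nearest to rgl3a, ST6GALNAC5 and ambp (0.985, 0.983 and 0.982). Their range over the libraries was narrower than that of piwil1: ambp ran from 636 to 748 normalised reads in EM libraries and from 597 to 1099 in control libraries. dazl was nearest to genes other than the members, chtopb (0.996), zgc:153345 (0.991) and si:ch211-12h2.6 (0.986). Its r with ddx4, piwil1 and piwil2 was 0.705, 0.574 and 0.656, lower than its r of 0.915 with dnd1. Without control replicate 2, an alternative added after the data were seen, the r of dazl with ddx4, piwil1 and piwil2 was 0.981, 0.961 and 0.974, so the lower values rest on that library, where dazl had 12 reads. Among ddx4, piwil1, piwil2 and nanos3, r ran from 0.932 to 0.983 over 6 libraries and from 0.927 to 0.983 without it. Each end of the range over 6 libraries was a pair with nanos3, which is near the limit of detection. Among ddx4, piwil1 and piwil2 alone r ran from 0.971 to 0.977 over 6 libraries. Without control replicate 2 at most 1 of the 3 nearest genes of a member remained. Spearman's rho kept at most 1 of the 3 nearest genes of a member.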

How the data were processed

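Per the labels and the paper, the authors made stranded mRNA libraries, aligned the reads to GRCz11 (Ensembl annotation) with HISAT2 2.0.5, removed duplicate reads with SAMtools 1.5 and counted reads over exons with HTSeq 0.9.1 (versions per the submitters' processing notes). The deposited values are raw read counts per gene. Removing duplicates lowers the count of abundant genes most. Groups and replicate numbers came from the sample titles, and nothing ties same-numbered tanks to each other.

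Counts were analysed in R 4.3.3 with DESeq2 1.42.0 as in the study (median-of-ratios size factors, independent filtering, Cook's distance filter), with edgeR 4.0.16 (quasi-likelihood, TMM) and limma 3.58.1 (voom) as alternatives. log2 values used a pseudocount of 1, and 3 counts were taken as the floor. Fits were tested on simulated data. Identifiers were named from the study's tables or, by exact symbol, from the gene name table, which held 29201 of the 32520. The members and lists were chosen with earlier results of these data known. The genes named are the members, dnd1, genes of the germ plasm and piRNA list that passed and set examples of the marker lists. The 3 genes most like each member, among those with a mean of at least 10, are also named. Genes outside these sets, among them zp2l1, btg4 and cyp17a1, were named after their values were seen. Exact permutation over 3 against 3 libraries cannot give a p below 0.1 and was used for no call. Sequences were not used here.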

Additional observations from a re-analysis of the deposited data

How the results depend on the processing

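Besides the main test, 17 alternatives were run. All 5 germ cell genes and dnd1 kept a negative log2 fold change wherever they were tested, as did ca7. On the log2 scale the change lay between -3.31 and -2.65 for dazl, from -2.12 to -0.95 for ddx4, from -1.65 to -0.46 for piwil1 and from -2.19 to -1.03 for piwil2. The values nearest 0 of the last 3 were those without control replicate 1. dazl was called in 11 of 17 alternatives, and ddx4, piwil1 and piwil2 in 1 each, DESeq2 without control replicate 2.

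The number of members called lower (1) became 0 with the edgeR quasi-likelihood test, and 0 with a replicate block in DESeq2 and in edgeR, where the adjusted p of dazl was 0.111 and 0.436. Removing 1 library at a time gave 0 to 4. Same-numbered libraries are from different tanks, and their deviations had correlations of -0.152, 0.209 and -0.201, so the numbers are not taken as pairs. Over all genes, 101 were called higher and 159 lower. These became 0 and 0 with edgeR, 16 and 77 with voom, 34 and 56 with at least 10 counts in at least 3 libraries, and 1 and 47 with the replicate block in edgeR. The replicate block in DESeq2 gave 64 and 110. Leaving out each library gave 19 to 406 higher and 85 to 191 lower in DESeq2, and edgeR without control replicate 2 gave 4 and 123. With the minimum of 10 counts 19592 genes were tested, against 23966 in the main test. The causes of these changes in the number of calls were not tested. The order of the libraries did not change with TMM scaling, while plain CPM moved control replicate 2. With a mean of at least 50, from 0 to 2 of the 3 nearest genes of a member remained. Depth limits nanos3 and dnd1 most, with at most 8 and 23 reads.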

Other observations

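Genes listed as markers of the somatic gonad were also read. The libraries held whole bodies, so the tissue that gave these reads is not known. Of 20 listed, 16 had an identifier and 12 were tested. DESeq2 called 1 of these lower and 0 higher in EM-juveniles, against 0.663% and 0.421% of all tested genes. The lower gene was cyp11a1, which encodes the enzyme that makes pregnenolone from cholesterol, with no reads in any EM library, against 23.3, 2.48 and 16.2 normalised reads in control replicates 1, 2 and 3. It is among the genes the study itself called in these libraries. No gene of the list was called lower without EM replicate 2, EM replicate 3, control replicate 1 or control replicate 3. In DESeq2, 1 gene of the list was called higher without control replicate 2, and 1 without control replicate 3. amh, the gene of anti-Müllerian hormone, had 58.0, 41.1 and 28.0 normalised reads in EM replicates 1, 2 and 3, against 6.44, 0 and 13.0 in control replicates 1, 2 and 3. The groups did not overlap, with EM above, as in 5.70% of all tested genes. The DESeq2 adjusted p was 0.0827 with all libraries and 0.0285 without control replicate 2, where edgeR gave 0.916 and 0.248. gsdf, a growth factor gene of the supporting cells, had 61.5, 45.5 and 23.5 in EM replicates 1, 2 and 3, against 29.0, 7.43 and 44.8 in control replicates 1, 2 and 3, and the groups overlapped. cyp17a1, which encodes an enzyme of androgen synthesis, had 2.34, 3.33 and 2.24 in EM replicates 1, 2 and 3, against 15.3, 7.43 and 16.9 in control replicates 1, 2 and 3, and was not called (log2 fold change -2.40, DESeq2 adjusted p = 0.261, and 0.156 without control replicate 2). cyp19a1a, the gonadal aromatase gene, had at most 2.24 normalised reads in any library.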
